A study of Mus musculus with 10 samples.

Results

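The Hox cluster genes are the 39 mouse genes whose symbol in the count table is Hox followed by a cluster letter from a to d and a number, out of 50600 genes listed in each library. The HoxA cluster holds 11 of them, HoxB 10, HoxC 9 and HoxD 9. They were described over a time course of reprogramming, in which mouse embryonic fibroblasts (MEFs) from E13.5 embryos of the strain CBA/CaJ X C57BL/6J were infected with retrovirus made in the packaging line PlatE and kept in iCD1 medium. The MEFs carried an Oct4-GFP reporter. All the cells received Oct4, Klf4 and Sox2 (OKS). The control arm, OKS + DR, received the red fluorescent protein DsRed as well, and the other arm, OKS + FoxO6, received the forkhead transcription factor FoxO6. RNA was sequenced at days 0, 1, 3, 5 and 7 with 1 library for each arm and day, so no library has a replicate, and libraries of 1 arm may come from the same infected culture.

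The libraries summed to between 1208379 and 2225750 estimated reads (RSEM expected counts), of which the Hox genes held 551 to 1064. Levels are given as TPM, transcripts scaled by length and library size, so that genes can be compared. A transcript of 2000 bases at 1 TPM received 1.29 to 2.21 reads at this depth, and a TPM below about 5 rests on few reads. The TPM of Foxo6 was 0.61 to 2.29 in OKS + DR and 762.1 to 1356 in OKS + FoxO6. It was 1017 in the FoxO6 library labelled day 0, so that library already carried the factor and day 0 is no uninfected sample.

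Hox genes encode homeodomain transcription factors that give cells their position along the axes of the embryo. They lie in the same order on the chromosome as the body regions they mark, with low numbers for anterior and high numbers for posterior or distal positions, and genes with the same number in different clusters are paralogs. Cultured fibroblasts keep a Hox pattern of the site they came from, while Polycomb and Trithorax group proteins hold the clusters silent or active, and in pluripotent cells the clusters are largely silent.

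At the level of whole clusters, the Hox genes did not move as one block. In the OKS + DR libraries of days 0, 1, 3, 5 and 7, the 39 genes added up to 446, 549.8, 669, 638 and 529.7 TPM. In OKS + FoxO6 the sum was 427, 502, 609, 559 and 484. The sum at day 7 was 1.19 times that of day 0 in OKS + DR and 1.13 times in OKS + FoxO6. On the CPM scale (counts relative to library size, scaled by the TMM method) the ratio was 1.01 (95% interval 0.908 to 1.13) in OKS + DR and 1.22 (1.10 to 1.34) in OKS + FoxO6. These intervals are exact, conditional on the 2 counts, and cover counting error only. In bulk RNA, fewer cells of a type and less RNA per cell cannot be told apart.

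The clusters differed in their course. The sum of HoxA was 102, 133, 225, 231 and 239.5 TPM over the days in OKS + DR and 104, 115, 139, 180.3 and 145 TPM in OKS + FoxO6. HoxA at day 7 was thus 2.34 times its day 0 level in the control and 1.40 times with FoxO6. On CPM these ratios were 2.04 (95% interval 1.65 to 2.54) and 1.69 (1.40 to 2.05), with overlapping intervals. The sum of HoxD was 71.2, 83.7, 53.7, 45.8 and 21.9 TPM in OKS + DR and 84.7, 100.5, 96.9, 78.1 and 44.2 TPM in OKS + FoxO6. HoxD at day 7 was 0.308 times its day 0 level in the control and 0.523 times with FoxO6. On CPM the HoxD ratios were 0.269 (0.181 to 0.394) and 0.509 (0.383 to 0.670), and these intervals also overlapped.

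HoxB and HoxC stood between these. HoxB was at 119.6, 128, 178, 177 and 136 TPM in OKS + DR and at 102, 104, 140.6, 118 and 128 TPM in OKS + FoxO6. HoxC was at 153, 204, 213, 184 and 132 TPM in OKS + DR and at 136, 182, 233, 183 and 166 TPM in OKS + FoxO6. The highest sum of HoxC was on day 3 in both arms. The share of HoxD in all Hox TPM was 16.0% at day 0 and 4.14% at day 7 in OKS + DR, against 19.8% and 9.14% in OKS + FoxO6.

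**Figure D1:**
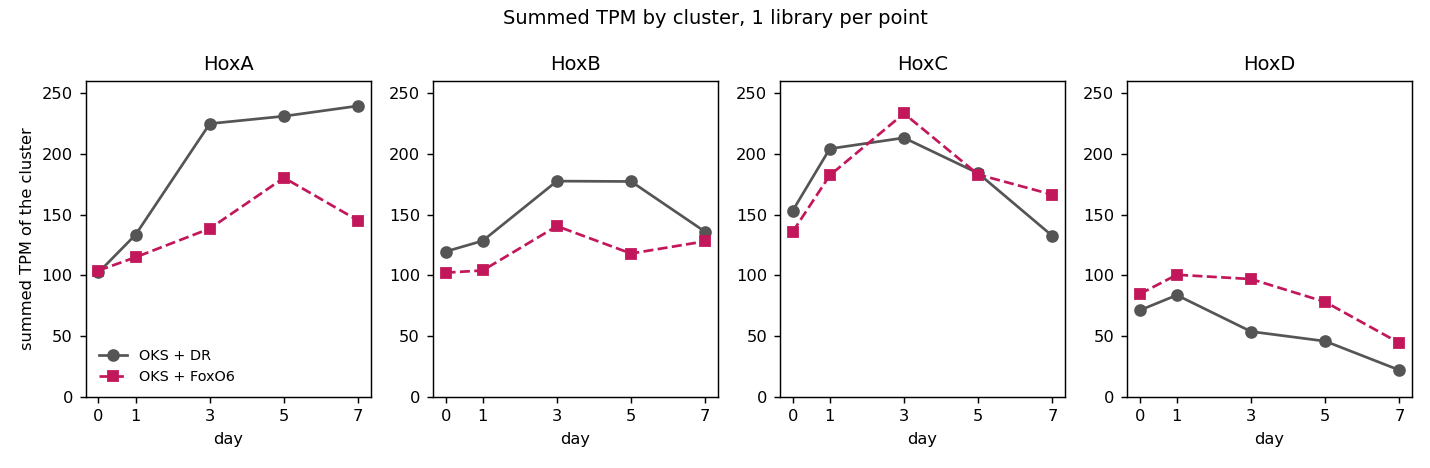
Summed TPM of the genes of each Hox cluster (y axis) by day (x axis) in OKS + DR (solid line, circles) and OKS + FoxO6 (dashed line, squares), with 1 library per point. HoxD in the FoxO6 arm lies above the control on all 5 days, and HoxA lies below it from day 1 to day 7.

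The clusters also differed in the ratio between the arms. The CPM of HoxD with FoxO6 was 1.14 times the control at day 0 (95% interval 0.884 to 1.48) and 1.24 times at day 1 (0.974 to 1.59). It was 1.64 times at day 3 (1.24 to 2.18), 1.71 times at day 5 (1.26 to 2.35) and 2.15 times at day 7 (1.44 to 3.26), the last from 72 reads against 40. The interval of counting error included no difference at days 0 and 1 and lay above it from day 3. HoxA with FoxO6 was 0.923 times the control at day 0 (0.729 to 1.17), 0.621 times at day 3 (0.520 to 0.740) and 0.763 times at day 7 (0.647 to 0.899). HoxB was 0.811 times the control at day 0 (0.660 to 0.999), 0.784 times at day 3 (0.659 to 0.934), 0.650 times at day 5 (0.543 to 0.779) and 1.06 times at day 7 (0.886 to 1.27). HoxC was 0.755 times the control at day 0 (0.625 to 0.914) and 1.30 times at day 7 (1.08 to 1.56). These ratios each compare 2 libraries and say nothing of the spread between cultures.

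Summed levels differed by position in the cluster, over blocks of unequal size. The 15 genes of groups 4 to 8, the central genes, held 49.6% to 66.2% of the Hox TPM of a library. The 16 genes of the posterior groups 9 to 13 held 24.4% to 35.4%, and the 8 genes of the anterior groups 1 to 3 held 8.66% to 15.1%. Hoxc6 had the highest mean over the libraries with 67.1 TPM, followed by Hoxa9 with 37.8, Hoxa7 with 34.2, Hoxc4 with 30.2 and Hoxb3 with 27.4 TPM. Of the 39 genes, 33 had a mean of at least 1 TPM and 28 had reads in all 10 libraries.

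Several genes at or near the ends of the clusters had few or no reads. Hoxb1 and Hoxd1, the anterior ends of their clusters, had no read in any library, and Hoxb13 had 1 read in all. Hoxc12 had 4 reads, Hoxc13 had 5, Hoxd12 had 19 and Hoxa13 had 25 over the 10 libraries. Hoxd13 was the best covered of the group 13 genes, with 168 reads and up to 13.5 TPM, and Hoxc4, the anterior end of HoxC, had 497 reads. The 4 genes of group 13, which pattern the distal limb and the tail end, together held 0.783% to 3.85% of the Hox TPM.

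**Figure D2:**
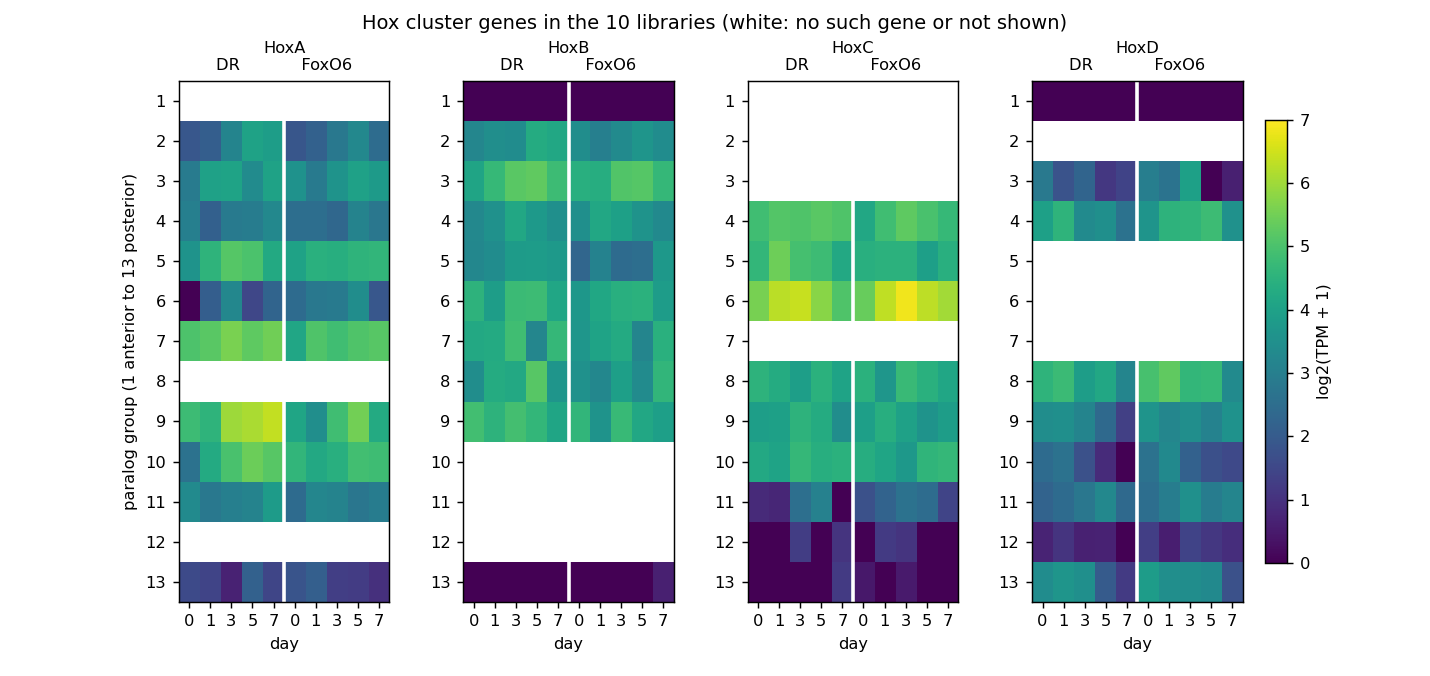
Level of 38 Hox genes as log2(TPM + 1) (colour) in the 10 libraries (x axis, day, with OKS + DR on the left and OKS + FoxO6 on the right of each panel), by cluster (panels) and paralog group (y axis). Hoxc6 has the highest mean, Hoxb1 and Hoxd1 are at 0 throughout, and the rows of Hoxd8 and Hoxd13 are darkest at day 7.

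Tests across the time course used edgeR's quasi-likelihood test on rounded expected counts with day and arm as terms, over 12212 genes that passed a filter on low counts. Of the 39 Hox genes, 28 passed that filter and 11 did not. A gene was called where its Benjamini-Hochberg adjusted p, taken over all genes tested, was under 0.05. With no replicate libraries, the spread is that of the days around the fitted arm and day effects.

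The first question was which Hox genes differed between the arms over the 5 days. No Hox gene of the 28 was called higher with FoxO6, where 6.63% of all genes tested were, and 2 were called lower, Hoxa9 and Hoxc5, where 6.89% of all genes were. At an unadjusted p under 0.05, 6 of the 28 passed in edgeR, where 27.7% of all genes did. DESeq2's Wald test called no Hox gene higher, where 4.79% of all genes were, and Hoxa9 alone lower, where 4.93% were. In DESeq2, 2 passed at an unadjusted p under 0.05, where 20.3% of all genes did. The median difference over the 28 genes was −0.15 on the log2 scale, against −0.02 over all genes tested, and 9 of the 28 were positive, against 47.6% of all genes. Without day 3 the median was −0.09 with 13 of 28 positive, and without day 7 it was −0.27 with 7 of 26 positive.

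The clusters differed in sign in this fit. All 6 HoxD genes tested were positive, with a median of 0.54 and a range from 0.36 to 0.63 on the log2 scale, and none was called. In HoxA, 7 of 8 were negative with a median of −0.35, and in HoxB 7 of 8 were negative with a median of −0.38. In HoxC, 5 of 6 were negative with a median of −0.08, a count that was 3 of 6 without day 3 or without day 5. Every HoxD gene tested stayed positive with the other scaling, filters and test, with each day omitted and without the day term, with 4 to 8 HoxD genes tested in them. Neighbouring genes of a cluster share regulatory DNA and some share reads, so these counts are not independent and carry no p.

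The second question was which Hox genes differed between day 7 and day 0 in a fit over both arms. Hoxa9 was called higher, 1 of 28, where 11.7% of all genes tested were. Hoxd8 and Hoxd13 were called lower, 2 of 28, where 10.1% of all genes were. The median over the 28 genes was 0.29, against 0.03 over all genes, and 18 of 28 were positive, against 52.1% of all genes. All 8 HoxA genes tested were positive, with a median of 0.84, and all 6 HoxD genes were negative, with a median of −1.24. In HoxB 7 of 8 were positive with a median of 0.39, and in HoxC 3 of 6 with a median of −0.01.

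The same 3 genes were called by DESeq2, with the other filters and with any of days 1, 3 or 5 left out. DESeq2 called 8.96% of all genes higher and 7.96% lower. A linear trend over day, and days 5 and 7 against days 0 and 1, each called 5 Hox genes, adding Hoxa2 upward and Hoxc5 downward. The trend called 10.2% of all genes upward and 10.9% downward, and the comparison of days 5 and 7 with days 0 and 1 called 14.1% and 12.3%. In the latter, 1 of the 6 HoxD genes, Hoxd11, was positive with 0.26.

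**Figure D3:**
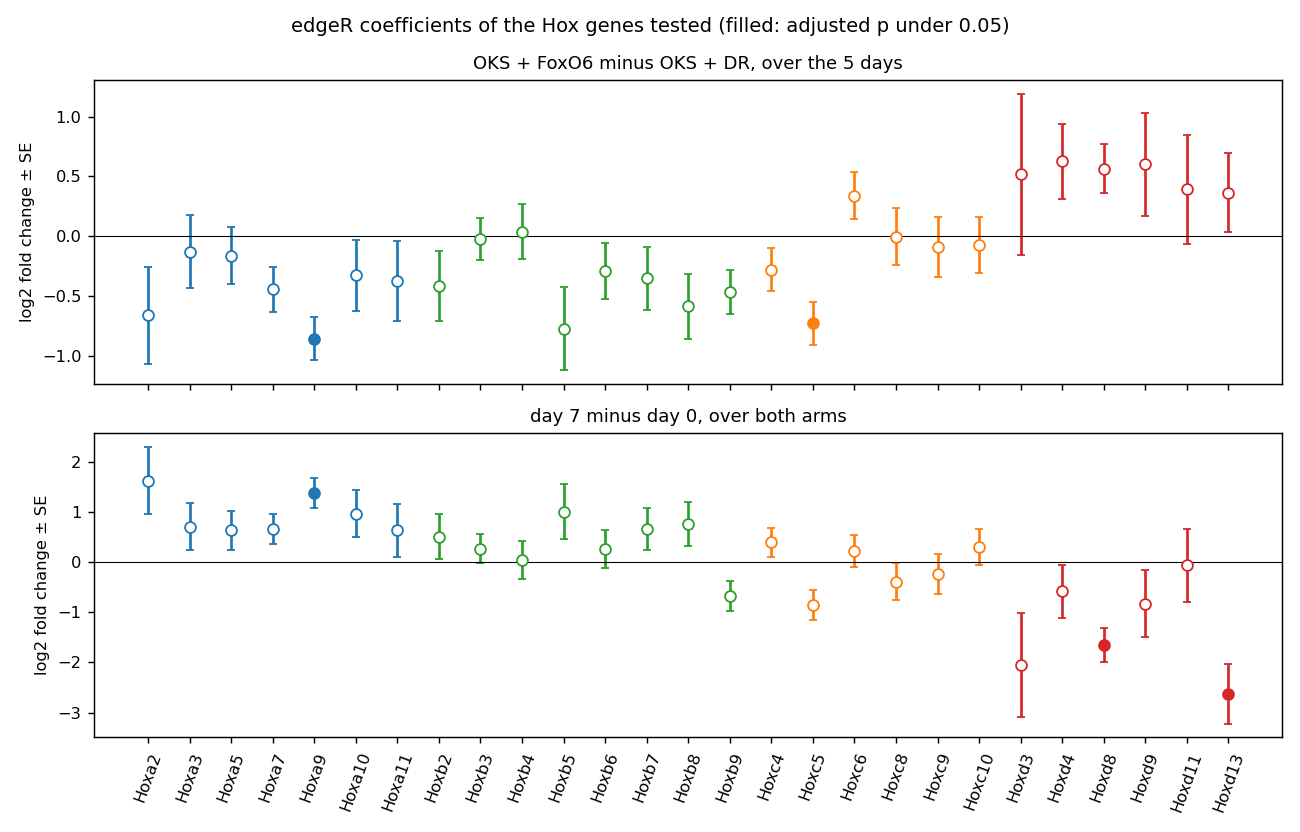
Log2 fold change with its SE (y axes) of 27 of the 28 Hox genes tested by edgeR, ordered by cluster and group (x axis), for OKS + FoxO6 minus OKS + DR (top) and day 7 minus day 0 (bottom), with filled points at an adjusted p under 0.05. All 6 HoxD genes (red) are above 0 in the top panel and below 0 in the bottom panel.

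The third question was whether the difference between the arms widened with the days. No Hox gene of the 28 was called by edgeR in either direction, where 0.991% of all genes had a positive and 0.614% a negative slope. At an unadjusted p under 0.05, 3 passed (Hoxc6, Hoxd9 and Hoxd4), where 18.0% of all genes did. DESeq2 gave no adjusted p to any Hox gene in this fit, since its filter on mean counts set them aside, and 1 passed at an unadjusted p under 0.05, where 8.64% of all genes did. Slopes were positive for 20 of the 28 Hox genes, against 52.0% of all genes, with a median of 0.04 log2 units per day, beside 0.01 over all genes. They were positive in 3 of 8 HoxA genes (median −0.06), 6 of 8 HoxB genes (0.03), 6 of 6 HoxC genes (0.06) and 5 of 6 HoxD genes (0.13). These counts moved with the days used. Without day 7, 13 of the 26 Hox genes tested had a positive slope, with a median of 0.0038 beside 0.0038 over all genes. In HoxC 5 of 6 were positive without day 0 and 4 of 6 without day 7, in HoxD 3 of 6 without day 0, and in HoxB 2 of 8 without day 7.

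Hoxa9 was the only Hox gene called both between the arms and between day 7 and day 0. It encodes a posterior homeodomain protein known for keeping blood progenitors from differentiating and for its part in limb and trunk patterning. It had 18, 29, 51, 60 and 88 reads at days 0 to 7 in OKS + DR and 21, 20, 35, 54 and 34 reads in OKS + FoxO6. The TPM was 26.8, 22.3, 62.4, 68.7 and 80.3 in the control and 16.4, 10.1, 27.8, 44.6 and 18.6 with FoxO6. The control stood above the FoxO6 library on each of the 5 days, while the ranges of the arms overlapped. Hoxa9 was lower with FoxO6 by a log2 difference of −0.86 (SE 0.18, 5 days per arm, edgeR's quasi-likelihood test, Benjamini-Hochberg adjusted p = 0.0105). It was higher at day 7 than at day 0 by 1.38 (SE 0.29, 2 libraries per day, same test, adjusted p = 0.00631).

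The call between the arms for Hoxa9 did not hold without day 3, where the difference was −0.83 (edgeR, adjusted p = 0.0545), nor in a fit without the day term, where it was −0.90 (edgeR, adjusted p = 0.262). Its effective length, the length RSEM used per library, ran from 1039 to 2413 bases with the mix of its transcripts, so its TPM and count folds differ. At day 7 it was 0.462 times the control on the CPM scale (95% interval 0.302 to 0.694) and −2.06 on the log2(TPM + 1) scale. Day 7 over day 0 in OKS + FoxO6 was 2.23 times on CPM (1.26 to 4.04) and 0.17 on the log2(TPM + 1) scale.

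The annotated span of Hoxa9 covers bases 52223100 to 52231089 of chromosome 6 (GRCm38), read from the minus strand. The 250 bases before a RefSeq start of the gene (GRCm38.p6, chr6:52227371-52227620, minus strand) overlap no annotated exon in GENCODE M21 and lie within its annotated span. They are shown because the gene was called in both of these comparisons, with capitals kept for 4 motifs searched on both strands, the FoxO element TGTTTAC, the Hox-Pbx element TGATNNAT, the TATA box TATAAA and the CCAAT box CCAAT.
Hoxa9: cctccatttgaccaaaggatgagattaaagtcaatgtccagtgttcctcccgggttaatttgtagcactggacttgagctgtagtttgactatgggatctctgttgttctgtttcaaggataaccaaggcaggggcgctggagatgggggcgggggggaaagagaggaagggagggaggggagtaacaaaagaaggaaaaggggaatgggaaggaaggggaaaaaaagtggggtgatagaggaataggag

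None of the 4 motifs was found in the Hoxa9 window, so it holds no capitals. It had 49.6% G and C and 3 CpG pairs.

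The other HoxA genes were led by Hoxa7 and Hoxa10. Hoxa7, a trunk gene, was at 31.8, 35.7, 47.3, 37.5 and 44.0 TPM in OKS + DR and at 16.8, 32.5, 27.9, 32.9 and 35.4 TPM in OKS + FoxO6, with the control higher on each day. Its difference of −0.44 (SE 0.19) was not called (edgeR, adjusted p = 0.145). Hoxa10, known for roles in the hind limb and the uterus, was at 5.22, 18.3, 30.8, 42.2 and 35.5 TPM in the control and at 23.2, 17.5, 20.4, 28.3 and 27.6 TPM with FoxO6. Its 8 reads in the control at day 0 made the day 7 library 5.12 times that level (95% interval 2.46 to 12.3), against 1.22 times (0.773 to 1.92) with FoxO6. It was not called in any of the 3 comparisons.

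Hoxa5, which patterns the neck and the lung, was at 11.1, 22.6, 34.7, 31.4 and 18.1 TPM in the control and at 15.5, 20.8, 19.8, 22.3 and 23.4 TPM with FoxO6. Hoxa2, the gene of the second branchial arch and hindbrain, was at 2.71, 3.30, 7.99, 15.3 and 13.8 TPM in the control and at 2.65, 3.55, 5.99, 8.64 and 4.56 TPM with FoxO6. Its day 7 difference of 1.62 (SE 0.67) was not called (edgeR, adjusted p = 0.113). The highest level of Hoxa2 was at day 5 in both arms. Hoxa3, Hoxa4, Hoxa6 and Hoxa11 ranged from 0 to 15.7 TPM.

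In HoxD, the called genes were Hoxd8 and Hoxd13, both lower at day 7 than at day 0. Hoxd8 belongs to the central genes of its cluster. It was at 22.5, 26.2, 13.8, 17.2 and 8.11 TPM in OKS + DR and at 29.97, 38.5, 24.0, 24.6 and 9.10 TPM in OKS + FoxO6, from 16 to 69 reads per library. The FoxO6 arm was above the control on each of the 5 days, and day 7 was the lowest in both arms. The day 7 difference was −1.65 (SE 0.34, 2 libraries per day, edgeR's quasi-likelihood test, Benjamini-Hochberg adjusted p = 0.00501). The difference between the arms, 0.57 (SE 0.20), was not called (edgeR, adjusted p = 0.0904).

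Hoxd13, which shapes the digits and whose mutation causes fused and extra digits, was at 9.59, 11.5, 10.2, 3.01 and 1.27 TPM in the control. With FoxO6 it was at 13.5, 10.1, 9.75, 8.97 and 2.31 TPM. Both day 7 libraries lay below every other library in TPM, with 3 and 5 reads. At day 7 it was lower than at day 0 by −2.63 on the log2 scale (SE 0.59, 2 libraries per day, edgeR's quasi-likelihood test, Benjamini-Hochberg adjusted p = 0.00841). Day 5 set the arms apart most, with 5 reads in the control and 22 with FoxO6. The difference over the days, 0.36 (SE 0.33), was not called.

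The windows of 250 bases before the RefSeq starts of both genes (GRCm38.p6, plus strand) are chr2:74704365-74704614 for Hoxd8 and chr2:74667975-74668224 for Hoxd13, and neither overlaps an annotated exon. They are shown as the HoxD genes called between day 7 and day 0, with capitals for the motifs named above.
Hoxd8: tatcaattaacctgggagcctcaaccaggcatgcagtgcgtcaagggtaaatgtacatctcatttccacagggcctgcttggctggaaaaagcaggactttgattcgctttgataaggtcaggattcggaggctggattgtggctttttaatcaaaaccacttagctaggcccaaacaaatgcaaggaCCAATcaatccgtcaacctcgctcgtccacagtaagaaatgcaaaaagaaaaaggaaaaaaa
Hoxd13: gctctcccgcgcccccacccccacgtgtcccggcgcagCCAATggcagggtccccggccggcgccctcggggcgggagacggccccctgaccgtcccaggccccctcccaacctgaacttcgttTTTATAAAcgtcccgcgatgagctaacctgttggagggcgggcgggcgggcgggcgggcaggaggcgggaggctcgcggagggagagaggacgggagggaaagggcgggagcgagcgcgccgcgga

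The Hoxd8 window holds 1 CCAAT box, 62 bases before the start, with 44.4% G and C and 6 CpG pairs. The Hoxd13 window holds 1 CCAAT box, 212 bases before the start, and TATA letters on both strands that overlap each other, 126 and 124 bases before it, with 74.4% G and C and 31 CpG pairs.

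Windows were found for 22 of the 39 Hox genes, 24 in all, among 32851 windows of the table. Their median content of G and C was 58.6%, against 52.4% in all windows, and their median number of CpG pairs 12.5, against 6. The CCAAT box was in 58.3% of the Hox windows and 33.8% of all windows, the TATA box in 16.7% and 12.4%, and the Hox-Pbx element in 16.7% and 7.68%. The FoxO element was in no Hox window and in 3.17% of all windows, which says only that these letters are not in these 250 bases. These are descriptions of sequence and name no bound site.

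The remaining HoxD genes each had fewer reads than Hoxd8. Hoxd9, a gene of the proximal limb, was at 9.70, 10.2, 7.92, 4.22 and 1.49 TPM in OKS + DR and at 11.4, 8.21, 9.90, 7.61 and 10.8 TPM in OKS + FoxO6. At day 7 the control had 3 reads and the FoxO6 library 20, a ratio of 7.98 on the CPM scale with a 95% interval from 2.37 to 41.9. Its slope between the arms, 0.36 log2 units per day (SE 0.14), was not called (edgeR, adjusted p = 0.197). Hoxd10 had 5, 7, 3, 1 and 0 reads at days 0 to 7 in the control and 10, 13, 6, 4 and 3 with FoxO6, and did not pass the filter. The 95% intervals of its CPM ratio at days 0, 1, 3 and 5 all included no difference.

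Hoxd4, a hindbrain and neck gene toward the anterior end of the cluster, was at 14.7, 22.6, 9.19, 10.2 and 5.19 TPM in the control and at 11.4, 22.1, 22.9, 26.8 and 10.7 TPM with FoxO6. Its ratio was 2.40 at day 3 (95% interval 1.13 to 5.56) and 2.33 at day 5 (1.22 to 4.79). Hoxd3 and Hoxd4 start within the same stretch and share reads with each other and with the readthrough gene Gm28230, which took 147 reads, so their values are uncertain. Hoxd11 and Hoxd10 likewise overlap Gm28309, which took 40.1 reads. Both Gm genes were picked after their values were seen.

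In HoxC, Hoxc5 was called between the arms and Hoxc6 had the most reads. Hoxc5, a central gene expressed at the neck and fore limb level, was at 23.8, 42.9, 29.7, 27.0 and 17.8 TPM in OKS + DR and at 20.2, 21.7, 21.7, 14.5 and 20.3 TPM in OKS + FoxO6. It was called lower with FoxO6 by −0.73 (SE 0.18, 5 days per arm, edgeR's quasi-likelihood test, Benjamini-Hochberg adjusted p = 0.0245). The reads were 44, 93, 62, 44 and 30 in the control and 42, 51, 51, 42 and 23 with FoxO6. In CPM the FoxO6 library was below the control on all 5 days, and in TPM on all but day 7. Its annotated span, from 102967443 to 103017429 on chromosome 15, runs across Hoxc6, Hoxc8, Hoxc9 and part of Hoxc10, and the effective length ran from 1265 to 2863 bases. Leaving out day 0, 1, 3 or 5 gave differences of −0.67, −0.65, −0.73 and −0.75 with adjusted p values of 0.0581, 0.1004, 0.0849 and 0.0797 in edgeR. DESeq2 gave −0.73 (adjusted p = 0.0834), and an edgeR fit without the day term −0.78 (adjusted p = 0.268).

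Hoxc6, a gene of the thorax and fore limb region, had the highest mean Hox level, though in the control Hoxa9 was above it at day 5, and Hoxa9, Hoxa7, Hoxa10 and Hoxc4 at day 7. It was at 46.7, 76.9, 83.8, 53.4 and 32.8 TPM in OKS + DR and at 40.3, 79.3, 114, 78.3 and 64.6 TPM in OKS + FoxO6. The CPM ratio was 0.830 at day 0 (95% interval 0.552 to 1.26), 0.974 at day 1 (0.716 to 1.33), 1.29 at day 3 (0.985 to 1.69) and 1.39 at day 5 (0.991 to 1.96). These 4 intervals included no difference, and that of day 7 (2.24, 1.54 to 3.28) lay above it. Its slope of 0.18 log2 units per day (SE 0.05) was not called (edgeR, adjusted p = 0.110).

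**Figure D4:**
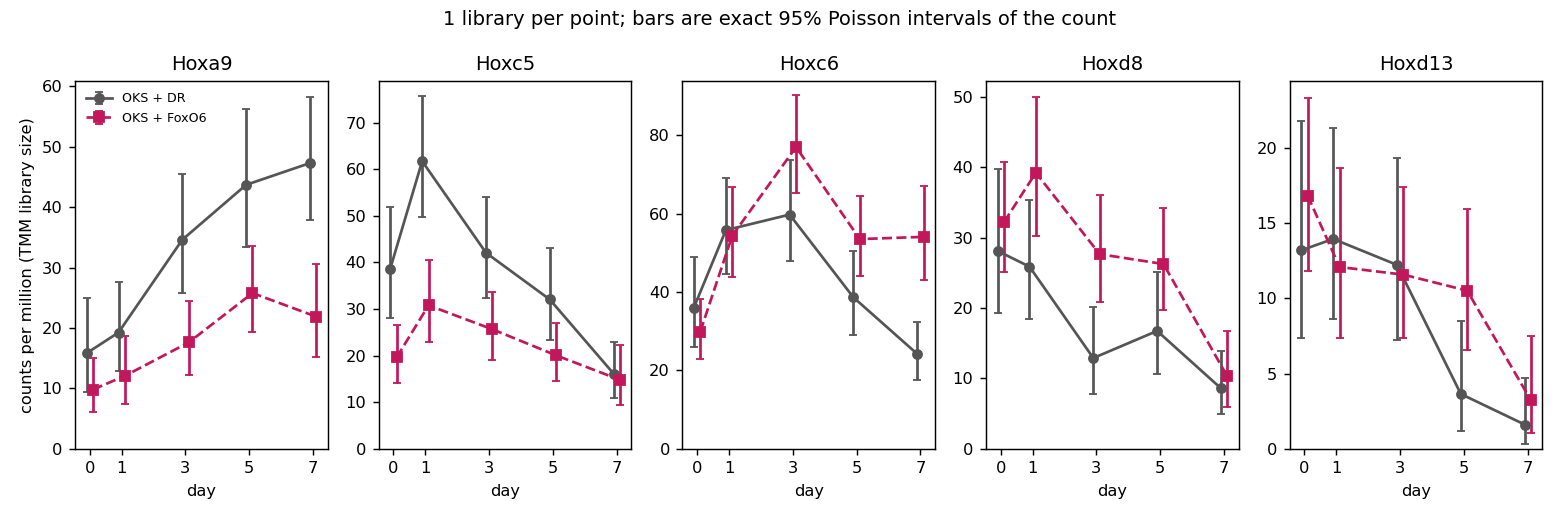
CPM with TMM library sizes (y axes) of the 4 called Hox genes and Hoxc6 by day (x axes) in OKS + DR (solid, circles) and OKS + FoxO6 (dashed, squares), with exact 95% Poisson intervals of each count as bars and 1 library per point. Hoxa9 is below the control on all 5 days with FoxO6, and Hoxd8 and Hoxd13 are lowest at day 7 in both arms.

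None of the remaining HoxC genes was called. Hoxc4 ranged from 17.2 to 37.2 TPM, Hoxc8 from 11.9 to 25.9, Hoxc9 from 9.78 to 21.9 and Hoxc10 from 12.2 to 24.5 TPM, with the ranges of the arms overlapping in each. Hoxc11 had 0 to 10 reads per library.

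HoxB held 8 genes tested and none called. Hoxb3 was at 16.0, 24.9, 36.2, 38.1 and 26.8 TPM in OKS + DR and at 20.3, 19.4, 33.4, 34.8 and 24.4 TPM in OKS + FoxO6, with its highest level at day 5 in both arms. Hoxb9, a gene of the rib cage, was at 28.7, 22.2, 29.0, 23.6 and 16.4 TPM in the control and at 23.4, 11.1, 25.5, 17.3 and 14.6 TPM with FoxO6. It was below the control on all 5 days, and its difference of −0.47 (SE 0.19) was not called (edgeR, adjusted p = 0.130). Hoxb5 was at 8.44, 9.58, 13.5, 13.8 and 12.5 TPM in the control and at 3.98, 7.65, 4.41, 4.74 and 12.2 TPM with FoxO6, also lower on each day. Hoxb8 had its highest level in the control at day 5, with 35.1 TPM against 9.31 TPM with FoxO6, and stood at 11.6 against 23.4 TPM at day 7. Its effective length ran from 1496 to 2573 bases, and on CPM the ratio was 0.419 at day 5 (95% interval 0.237 to 0.726) and 1.32 at day 7 (0.774 to 2.26). Hoxb2, Hoxb4, Hoxb6 and Hoxb7 ranged from 7.06 to 27.8 TPM.

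Single days were then compared without a test, as differences of log2(TPM + 1) over 2-fold among the 33 genes with a mean of at least 1 TPM and the 15011 genes with such a mean. At day 0, 3 Hox genes, Hoxa6 and Hoxa10 among them, were over 2-fold higher with FoxO6 and 0 lower, where 10.6% and 6.41% of all genes were. At day 1, 1 was higher (Hoxc11) and 3 lower (Hoxa3, Hoxa9 and Hoxb8), where 8.1% and 9.43% of all genes were. At day 3, 2 were higher (Hoxd3 and Hoxd4) and 2 lower (Hoxa9 and Hoxb5), where 8.21% and 11.8% were.

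At day 5, 3 were higher (Hoxa6, Hoxd4 and Hoxd13) and 3 lower (Hoxb5, Hoxb8 and Hoxd3), where 10.3% and 11.4% of all genes were. At day 7, 3 were higher (Hoxc11, Hoxd9 and Hoxd10) and 2 lower (Hoxa2 and Hoxa9), where 8.3% and 16.5% of all genes were. On each day the Hox genes past 2-fold in 1 direction made up at most 9.09% of the 33. That share was above the one of all genes only for the higher genes of day 7, at 9.09% against 8.3%. Among those, Hoxc11 and Hoxd10 each had 3 reads with FoxO6 and 0 in the control. Hoxa6 had 4 reads against 0 at day 0 and 8 against 1 at day 5. Of the names above, Hoxa9 passed on 3 days and no other gene on more than 2, and 3 of the 5 days named no HoxC gene. This tally holds for TPM, which also moves with the effective length. On CPM, Hoxa9 was 0.627 times the control at day 1, 0.509 times at day 3 and 0.4625 times at day 7. Only the ratio of day 7 was thus past 2-fold, and the interval of counting error at day 1 (0.336 to 1.15) included no difference. Some genes not named for a day were past 2-fold on CPM, such as Hoxc6 at day 7 (2.235) and Hoxd3 at day 1 (4.77).

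The libraries' cell markers moved over the same days. Of 12 fibroblast markers tested, 11 fell between day 0 and day 7, and their summed TPM ranged from 2592 to 8376 in OKS + DR and from 2796 to 7409 in OKS + FoxO6. Of 5 pluripotency markers tested, 4 rose, with sums from 6.51 to 356 in the control and from 1.75 to 78.3 with FoxO6. All 4 epithelial markers tested rose, with sums from 12.1 to 641.5 and from 3.66 to 138. Between the arms, 4 fibroblast markers were higher with FoxO6 (Dcn, Pdgfra, Postn and Twist1) and 3 lower (Col3a1, Fbln2 and Prrx1), while 2 pluripotency markers (Nanog and Tet1) and 3 epithelial markers (Cdh1, Epcam and Krt8) were lower. The part of these marker changes in the Hox values was not tested.

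Markers of other cells were low or uneven. The summed TPM over the 10 libraries ran from 14.1 to 55.8 for macrophages, from 20.9 to 142 for endothelium, from 79.5 to 489.6 for neural cells and from 2.22 to 236 for skeletal muscle, whose highest value was the FoxO6 library of day 7. Single genes carried these sums. Cd68 held most of the macrophage sum, Tek of the endothelial, Stmn2 of the neural and Acta1 of the muscle sum, while Myog was at 0 in all 10 libraries and Csf1r, Adgre1, Cdh5, Dcx and Myod1 were at 0 in at least 6. Endothelial markers were called higher with FoxO6 in 2 of 2 tested (Kdr and Tek) and neural markers lower in 1 of 2 (Stmn2). Macrophage and muscle markers had none called between the arms. For the slope between the arms, Col1a2, Dcn, Kdr and Acta1 were called upward, and no gene of the pluripotency, epithelial, macrophage or neural lists. Over the course, Tek rose and no macrophage, neural or muscle marker was called.

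Genes that work with or on the Hox genes were read from lists. Of the 8 Hox cofactors tested, Meis3 was higher with FoxO6 (0.74, SE 0.20) and Pknox2 lower (−1.39, SE 0.39), and Meis2 (1.01, SE 0.22) and Pknox2 (3.19, SE 0.66) rose from day 0 to day 7. Meis and Pknox proteins bind DNA together with Hox and Pbx proteins. Pknox2 was at 4.25, 2.38, 8.54, 22.1 and 27.9 TPM in the control and at 3.39, 0.72, 5.81, 3.26 and 8.04 TPM with FoxO6. Pbx2, the Pbx gene with the highest mean, was at 25.01 to 59.6 TPM and was not called.

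Of the 21 regulators of Hox transcription tested, none was called between the arms, and Wdr5 (1.09, SE 0.19) and Bmi1 (0.65, SE 0.21), members of Trithorax and Polycomb group complexes, rose from day 0 to day 7. Of the 14 genes of retinoic acid handling tested, 3 were higher with FoxO6 (Aldh1a1, Aldh1a3 and Rdh10) and 2 lower (Crabp1 and Crabp2). Retinoic acid is a known inducer of the 3′ Hox genes. Crabp2, a carrier of retinoic acid, was at 236.6, 225, 201, 184.6 and 137 TPM in the control and at 72.3, 33.6, 27.8, 44.3 and 37.2 TPM with FoxO6, with no overlap between the arms (−2.24, SE 0.19, edgeR, Benjamini-Hochberg adjusted p = 8.55e-05). Rdh10, which makes retinal, was higher with FoxO6 by 1.08 (SE 0.19).

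Between day 0 and day 7, 4 of these 14 rose, Aldh1a1, Rxra and Stra6 among them, and 2 fell (Aldh1a3 and Crabp1). Among 18 other positional genes of mesenchyme tested, Twist1 was higher with FoxO6 and Foxd1 and Prrx1 lower. Over the course, Foxd1 and Tbx2 rose and 7 fell (Alx4, Lhx9, Pitx1, Prrx1, Prrx2, Shox2 and Twist1). Tbx2 was the only one of them called for a slope, with −0.36 log2 units per day (SE 0.06), from 6.52 TPM at day 0 to 163.5 TPM at day 7 in the control and from 18.1 to 35.4 TPM with FoxO6.

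Genes that flank the clusters were read the same way. Of 15 tested, Skap2, which flanks HoxA, was higher with FoxO6 (0.51, SE 0.15), while Snx10 (−0.94, SE 0.26), Cbx5 (−0.71, SE 0.14) and Hnrnpa1 (−0.51, SE 0.11) were lower. From day 0 to day 7, Skap2 and Hnrnpa1 rose and Lnpk1, as the table names the gene Lnpk beside HoxD, fell. Of the 10 listed antisense and noncoding RNAs of the clusters found in the files, 1, Hoxa11os, passed the filter, and it was not called. Hoxa11os, antisense to Hoxa11, was at 12.1 to 23.1 TPM in the control and at 4.75 to 17.5 TPM with FoxO6. Gm53, a noncoding RNA between Hoxb13 and Hoxb9 chosen after its values were seen, was at 11.3 to 40.4 and 12.6 to 43.2 TPM. Where the counting did not use strand, reads of antisense partners cannot be told apart.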

How the data were processed

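RNA from 10 libraries, 1 for each of 2 arms and 5 days, was sequenced by the authors and aligned with bowtie2 and RSEM to the GENCODE M13 transcriptome (GRCm38, mm10). The versions and the strand setting are not given in the sources used here, which name 2 library kits. The deposited values are expected counts, TPM and the effective length RSEM used for each gene and library. The series table holds 48476 of the 50600 genes, with the same counts. Gene coordinates came from GENCODE M21 on GRCm38.

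Expected counts were rounded to whole numbers. They were tested with edgeR 4.0.16 (R 4.3.3; TMM scaling, filterByExpr, quasi-likelihood test with Benjamini-Hochberg adjustment over all genes tested, threshold 0.05) in a fit with day and arm as terms, and in a second fit with the arm by day slope. DESeq2 1.42.0, other filters and scaling, and each day left out were the alternatives. Day by day, TPM was compared as log2(TPM + 1) without a test, and ratios of counts have exact 95% intervals that cover counting error only. The depth of 1208379 to 2225750 counts per library limits genes of few reads. Because nothing names separate cultures, p-values measure only the spread between these libraries. Promoter windows came from RefSeq (GRCm38.p6).

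All 39 Hox genes entered the counts and sums, and those with a mean of at least 1 TPM or reads in at least 3 libraries could be named. Hoxb1, Hoxd1 and Hoxb13 were named after their values were seen. Of the other lists, genes past a threshold were named, else those of highest mean TPM. The members and lists were chosen with earlier results of these data known. Values of 2 single genes are not reported here.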

Additional observations from a re-analysis of the deposited data

How the results depend on the processing

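The 2 Hox genes called between the arms became 1 (Hoxa9) with DESeq2's Wald test and 0 without the day term, and between 0 and 3 with 1 day left out. No Hox gene was called without day 3, and Hoxb8 joined Hoxa9 and Hoxc5 without day 7. Calls over all genes moved as well. With day and arm as terms and all days, 810 of 12212 genes were called higher and 841 lower. Without the day term these were 125 and 44 of 11028 genes. Leaving out day 3 gave 400 and 373 of 12088, and leaving out day 7 gave 837 and 803 of 11854. The 3 genes called between day 7 and day 0 became 5 with a linear trend over day and 5 with days 5 and 7 against days 0 and 1, and remained 3 with any of days 1, 3 or 5 left out. No Hox gene was called for the slope between the arms in any edgeR alternative. The summed Hox level at day 7 over day 0 in OKS + DR was 1.19 on TPM and 1.01 on summed CPM. The 22 gene and day pairs past 2-fold became 14 among genes with a mean of at least 5 TPM. At day 7, HoxB with FoxO6 was 0.943 times the control on TPM and 1.06 times on CPM, all Hox genes 0.913 and 1.05 times, and HoxA 0.606 and 0.763 times. The median slope of the HoxB genes between the arms was 0.03 log2 units per day, and −0.09 without day 7. For these shifts the cause was not tested, except that fewer genes entered the count of pairs at the higher TPM minimum. The day term pairs the arms by day, and the fit without it is the unpaired alternative given above. Depth limits the HoxD values at day 7 most, where the control cluster sum rests on 40 reads.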
